A study of Saccharomyces cerevisiae BY4741 with 24 samples.

Results

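Restricted cells at 24 h were set against control cells at 48 h, gene by gene, to ask whether yeast on less glucose reached the late state of the control culture earlier. The comparison used 6 of the 24 arrays, chosen by their labels: 3 arrays of Saccharomyces cerevisiae BY4741 grown in rich YPD medium with 0.5% glucose and harvested 24 h after inoculation, and 3 arrays of the same strain in YPD with 2% glucose harvested at 48 h. The other groups were both glucose levels at 12 and 18 h, control cells at 24 h and restricted cells at 48 h, each with 3 arrays that the series design calls biological triplicates. Control cells at 24 h stand beside the results as the reference of the same age, and every level is that of a batch culture growing out of its medium. The 2 groups compared differ in glucose and in age at once, so both cannot be told apart as the source of a difference, and p-values measure only the spread between these cultures.

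Budding yeast ferments glucose first and keeps the genes for respiration and for other carbon sources off while glucose lasts. When glucose runs out, cells shift to the ethanol and acetate they have excreted, switch on the glyoxylate cycle, gluconeogenesis and peroxisomal beta-oxidation, and slow and then stop dividing. Growth on less glucose, called caloric restriction, is known to prolong the time that such non-dividing cells stay alive, the chronological lifespan.

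Levels are log2 values that the authors had normalised so that every array had the same distribution, and a difference of 1 is a 2-fold difference. Each difference is restricted at 24 h minus control at 48 h unless another pair is named, and is given ± SE with 3 arrays a group. The SE of a gene uses its moderated spread within all 8 groups, not only that of the 6 arrays compared. A gene is called higher or lower where its Benjamini-Hochberg adjusted p in limma was under 0.05, and 5449 genes were tested. The background level was 2.29, from probe sets of another yeast on the same arrays, and 5373 genes were above it in at least 1 of both groups. The SD within both groups had a median of 0.0551, and the SE of their difference one of 0.0642. Of the genes deleted in BY4741, LEU2 (1.69 to 2.05), MET17 (1.84 to 2.11) and URA3 (1.21 to 1.49) were at background on all 6 arrays, while HIS3 was at 4.89 to 5.29. The a-specific genes of this mating type a strain were present (STE2 at 7.53 to 8.56), and of the alpha-specific genes SAG1 (6.57 to 7.11), STE3 (5.0 to 6.0), MF(ALPHA)1 (3.38 to 4.92) and MF(ALPHA)2 (2.33 to 2.90) were also above background, the last only just. The 12 spike-in probe sets, for transcripts added to the RNA, had a mean of 3.95 to 4.43 on the restricted arrays and 4.23 to 4.61 on the control arrays, a difference of -0.143 ± 0.189. On a scale set by them the median of all genes was 0.153 above the control, and that shift was smaller than its error.

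Restricted cells at 24 h were not at the control state of 48 h. They had higher levels of most daughter cell, sterol, purine and ribosomal protein genes, and lower levels of most chaperone, phosphate uptake and pyrimidine genes. By number, 1954 genes (35.9%) were higher and 1890 (34.7%) lower, and 125 (2.29%) were higher and 150 (2.75%) lower by at least 2-fold. The shares of 35.9% and 34.7% are the reference for all list counts of this comparison below. For 76.3% of genes the ranges of both groups were apart. On the spike-in scale of group means the split was 2734 higher and 1324 lower, and with the spike-ins of each array it was 895 and 393. For comparison, control cells at 48 h and at 24 h differed in 3374 genes, 138 of them by at least 2-fold. Of the 3374, 1718 were higher and 1656 lower at 48 h. Restricted and control cells at 24 h differed in 3435 genes, 174 of them by at least 2-fold.

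**Figure D1:**
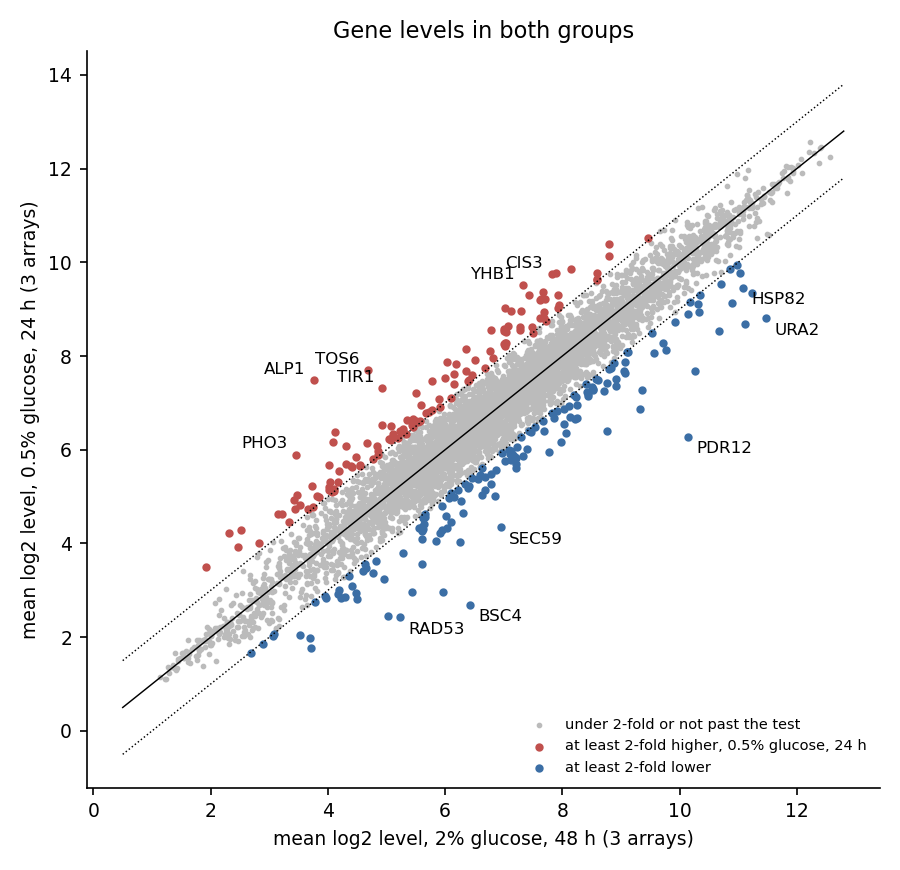
Mean log2 level of each gene in control cells at 48 h (horizontal axis) and restricted cells at 24 h (vertical axis), 3 arrays each. The solid line marks equal levels and the dotted lines a 2-fold difference, and 125 genes (red) were higher and 150 (blue) lower by at least that much.

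Seen over all genes, the group closest to restricted cells at 24 h was restricted cells at 18 h, with a median absolute difference of 0.153. Control cells at 18 h followed at 0.22 and control cells at 24 h at 0.221, and the array pairs of these groups overlapped (0.22 to 0.239 and 0.222 to 0.247). Control cells at 48 h lay farther away, at 0.276, with 9 array pairs between 0.274 and 0.294, while arrays within the restricted 24 h group differed by 0.057 to 0.0724. Control cells at 48 h in turn were closest to control cells at 24 h, at 0.211 (array pairs 0.213 to 0.232), and next to restricted cells at 24 h. On the spike-in scales control cells at 24 h were again closer to control cells at 48 h (0.237) than restricted cells were (0.306), but restricted cells at 24 h were then farther from control cells at 24 h (0.319) than from control cells at 48 h.

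**Figure D2:**
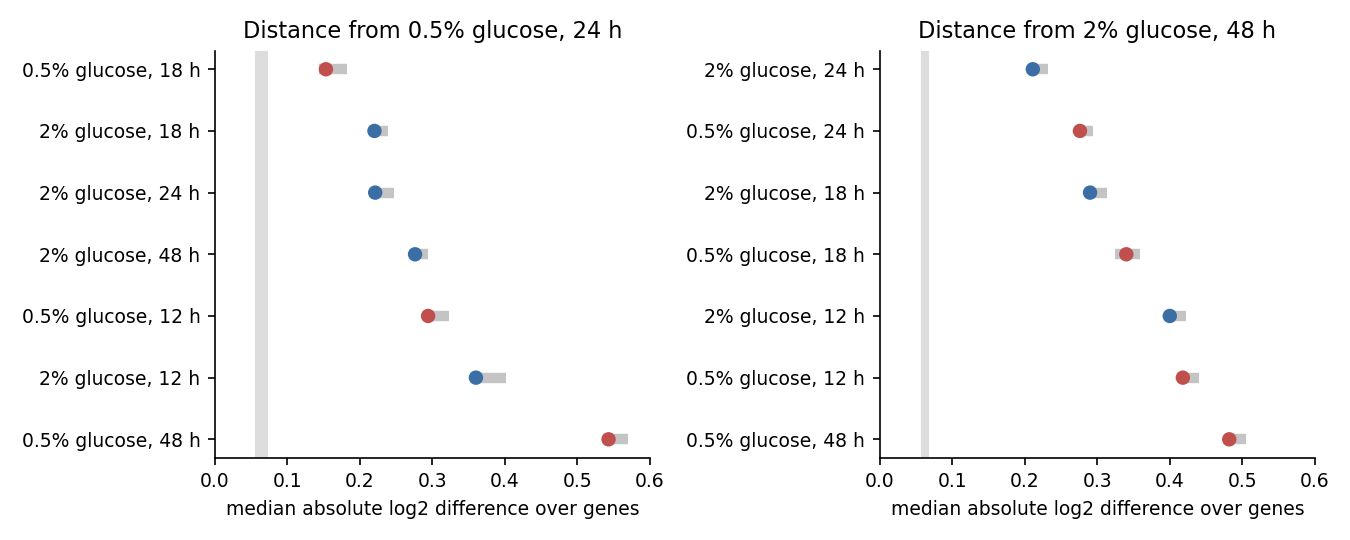
Median absolute log2 difference over 5449 genes from restricted cells at 24 h (left) and from control cells at 48 h (right) to each other group. Points are differences of group means, bars span the 9 array pairs and the shaded band spans the pairs within the group; control cells at 24 h are the closest group to control cells at 48 h.

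The control course gave a reading on genes chosen without restricted cells or control cells at 24 h. From 12 h to 48 h in 2% glucose 674 genes changed by at least 2-fold, of which 345 rose and 329 fell. Against control cells of the same age, restricted cells at 24 h differed in the direction of the course for 268 of them (39.8%) and against it for 210 (31.2%). This counts direction and not distance, since a gene can pass the 48 h level. Over all genes the test of restricted against control at 24 h called 31.6% higher and 31.4% lower. On the spike-in scale of group means it called 3499 higher and 673 lower, and with the spike-ins of each array 1065 and 150. On the former scale the order of the course counts turned, with 260 of 696 genes in its direction and 276 against it. Of the 345 genes that rose, restricted cells at 24 h were short of the 48 h control level in 195 and beyond it in 81, and of the 329 that fell they were short in 215 and beyond in 45. These short and beyond counts use the same 48 h control arrays by which the genes were chosen. That choice can tilt them toward short, so they are a description.

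With the mean control level at 12 h set to 0 and that at 48 h to 1, the 674 genes had a mean position of 0.74 ± 0.017 (SD, n = 3) in restricted cells at 24 h and 0.693 ± 0.014 (SD, n = 3) in control cells at 24 h. The restricted arrays lay at 0.726 to 0.759 and the control arrays at 0.685 to 0.71, so they did not overlap, and both groups lay below the 48 h control level of 1. Replicate 1 was the highest array in both groups, and in both it had the lowest spike-in mean (3.95 and 4.12); the part of this in the positions was not tested. Restricted cells were at 0.308 at 12 h, 0.509 at 18 h and 1.3 at 48 h. Control cells at 18 h were at 0.506, and their arrays (0.495 to 0.522) overlapped with the restricted arrays of that time (0.48 to 0.566).

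**Figure D3:**
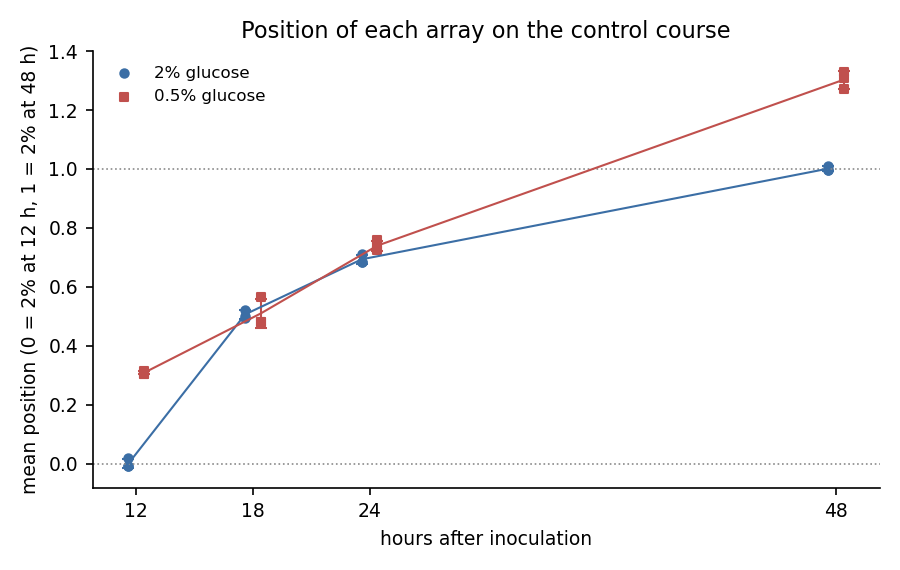
Mean position of each array on the control course over 674 genes, against hours after inoculation, with group means and SD (n = 3) and both glucose levels set slightly apart sideways. At 24 h the restricted arrays (red squares, 0.726 to 0.759) lie just above the control arrays (blue circles, 0.685 to 0.71) and below the 48 h control level of 1.

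The last step of the control course, from 24 h to 48 h, raised 66 genes by at least 2-fold (1.21% of genes) and lowered 72 (1.32%). These were chosen from arrays that the comparisons below share, so their counts are a description. Of the 66, restricted cells at 24 h were still below the 48 h control level in 55, did not differ from it by the test in 7 and were above it in 4. Compared with control cells at 24 h they were higher in 36, 22 of them by at least 2-fold, and lower in 19. Of the 72 that control cells lowered, restricted cells were still above the 48 h level in 68, and against control cells at 24 h they were lower in 39, 5 of them by at least 2-fold, and higher in 17. The 4 genes not above it were PHO5, PHO11, WSC4 and MSF1.

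Genes for acetate and fatty acid use were among those of the late rise for which restricted cells at 24 h were at or near the 48 h control level. ATO3, for a transporter linked to ammonium and acetate export, was at 10.41, 10.33 and 10.33 in restricted cells at 24 h, at 10.42, 10.38 and 10.46 in control cells at 48 h, and at 8.41 on average in control cells at 24 h. The arrays of both groups overlapped, and the difference of -0.07 ± 0.06 did not pass (adjusted p = 0.309). ADY2, for the acetate transporter, differed by 0.07 ± 0.05 (adjusted p = 0.185) and was 1.20 above control cells at 24 h. PXA1, a subunit of the peroxisomal fatty acid importer, had non-overlapping arrays but a difference of 0.12 ± 0.07 that did not pass (adjusted p = 0.125) and stood 1.54 above control cells at 24 h. The PXA1 difference passed with only the 6 arrays compared (adjusted p = 0.0218) and with array weights (0.0304), as did that of ADY2 with array weights (0.0445). On the spike-in scale of group means both passed as higher, ADY2 at 0.213 (adjusted p = 0.000337) and PXA1 at 0.266 (0.00197).

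SNZ1, for vitamin B6 synthesis and known as a gene of stationary phase, averaged 10.06 in restricted cells at 24 h, with the highest array at 10.10, and was at 10.33, 10.27 and 10.21 in control cells at 48 h. Control cells at 24 h averaged 8.69, the level that restricted cells already had at 18 h. Restricted cells at 24 h were thus 1.36 above control cells of the same age and differed by -0.21 ± 0.07 from the 48 h control level (adjusted p = 0.00552), which did not pass on the spike-in scale of group means (adjusted p = 0.319). Its partner in the same enzyme, SNO1, averaged 6.25 in restricted cells at 24 h, 7.05 in control cells at 48 h and 5.13 in control cells at 24 h. Also level with control cells at 48 h were HPT1, for the enzyme that salvages hypoxanthine and guanine (0.04 ± 0.08), RPS9A, for a protein of the small ribosomal subunit (0.04 ± 0.13), and YNR064C (0.09 ± 0.09). On the spike-in scale of group means HPT1 (adjusted p = 0.0491) and YNR064C (0.0264) passed as higher. RPS9B, the duplicate of RPS9A, was 1.37 above control cells at 48 h (adjusted p = 4.74e-12), and probes of such copies can cross-hybridise. Of the 11 genes of the late rise that were not short of the 48 h level, the others were FOX2, ECI1, HXT2, SPO20 and CSM4, chosen after their values were seen. In the list of stationary phase and vitamin B6 genes 4 of 15 were higher and 8 lower (26.7% and 53.3%, over all genes 35.9% and 34.7%). Its median was -0.199, and -0.0556 on the spike-in scale of group means. SPG5 averaged 10.32 in restricted cells at 24 h, 11.02 in control cells at 48 h and 10.31 in control cells at 24 h. FMP45 (1.04) and YGP1 (0.82) were higher.

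The beta-oxidation and peroxisome list had a small median difference from the late control level, with most members called on 1 side of it or the other. Of its 21 measured members 9 were higher and 8 lower than in control cells at 48 h (42.9% and 38.1%, over all genes 35.9% and 34.7%). The differences ran from -0.574 to 0.847, none by 2-fold, and their median was 0.115. Against control cells at 24 h, restricted cells were higher in 17 and lower in 1, by a median of 0.965, beside 1723 and 1712 of all 5449 genes. Control cells at 48 h were higher than at 24 h in 16 and lower in 2 (median 0.879), beside 1718 and 1656 of all 5449 genes. POX1, the acyl-CoA oxidase of the entry step, was at 8.06, 8.21 and 8.22 in restricted cells at 24 h, at 8.71, 8.69 and 8.80 in control cells at 48 h, and at 6.26, 6.34 and 6.33 in control cells at 24 h. It thus differed from the late level by -0.57 ± 0.07 (adjusted p = 5.51e-07) and stood 1.85 above control cells of its age, with no overlap. The later enzymes FOX2 (0.20), POT1 (-0.31) and ECI1 (0.42), the catalase CTA1 (-0.29) and the thioesterase TES1 (0.85) lay on both sides of the late level.

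These genes did not rise steadily in 2% glucose. At the 4 times in order, POX1 averaged 7.91, 7.77, 6.31 and 8.73 in control cells and 8.21, 8.31, 8.16 and 8.73 in restricted cells. Restricted cells thus stayed between 8.16 and 8.31 from 12 to 24 h, while control cells passed through a low at 24 h. FDH1, for formate dehydrogenase, showed a low at the same time, with control means of 2.65, 6.36, 3.95 and 7.59 at the 4 times. In restricted cells at 24 h it was at 7.16, 7.25 and 6.85, and it differed from control cells at 48 h by -0.50 ± 0.13 (adjusted p = 0.00183). ATO3 (9.29, 9.70, 8.41 and 10.42) and ADH2, for the alcohol dehydrogenase that oxidises ethanol (10.38, 11.75, 10.19 and 11.18), had control lows at 24 h as well, whereas SNZ1 rose at each control time (7.28, 7.98, 8.69 and 10.27). Of the 66 genes of the late rise, 58 were higher at 48 h than at both 12 h and 18 h in control cells. Within those 58, restricted cells at 24 h were short of the late level in 50, and 28 were higher and 19 lower than in control cells at 24 h.

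**Figure D4:**
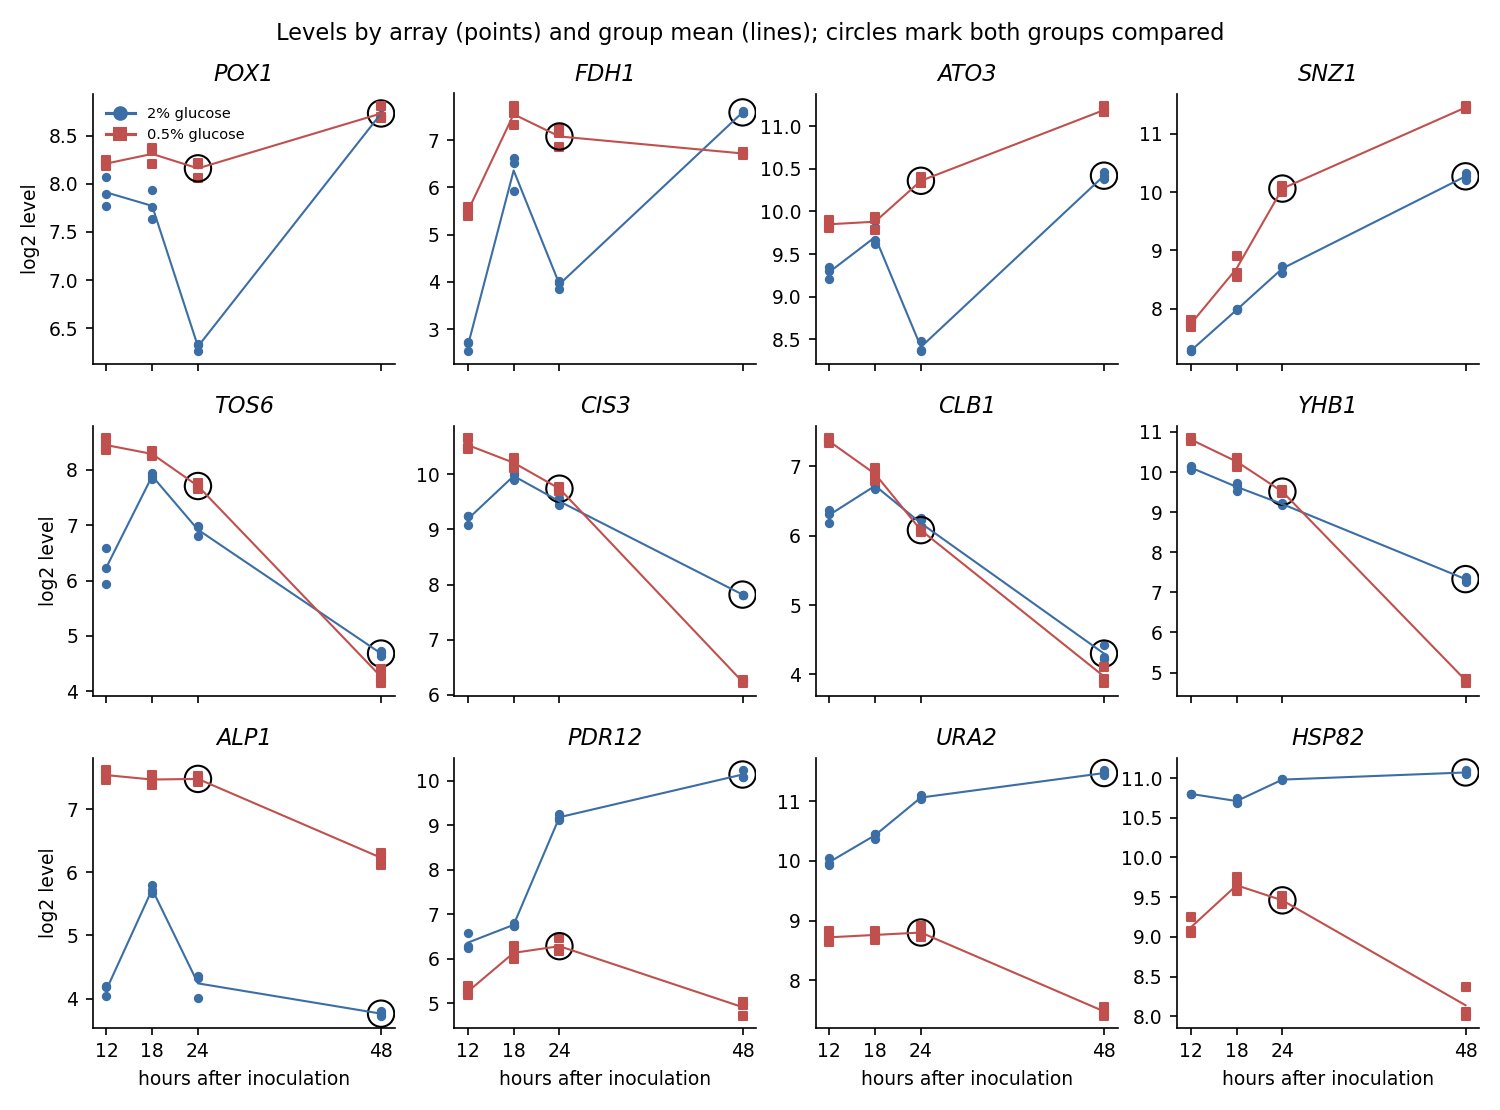
Log2 levels on each array (points) and group means (lines) against hours after inoculation for 12 genes in 2% glucose (blue circles) and 0.5% glucose (red squares), with open circles around restricted cells at 24 h and control cells at 48 h. In the top row both circled groups lie above control cells at 24 h, in the middle row restricted cells at 24 h lie nearer control cells at 24 h than at 48 h, and in the bottom row they lie apart from control cells at both times.

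The list of the glyoxylate cycle, gluconeogenesis and acetate use was near the shares of all genes (35.9% higher and 34.7% lower). Of 24 members 7 were higher and 9 lower (29.2% and 37.5%), and the median of -0.04 became 0.0987 on the spike-in scale of group means. Of its higher members, 3 enzymes of glucose synthesis and the glyoxylate cycle were also above control cells at 24 h. ICL1, isocitrate lyase, was at 10.93, 10.88 and 10.89 against 10.02, 9.84 and 9.92 (0.97 ± 0.05, adjusted p = 1.07e-13), and averaged 10.33 in control cells at 24 h. FBP1, fructose-1,6-bisphosphatase, differed by 0.91 ± 0.04 and PCK1, the carboxykinase of the same route, by 0.70 ± 0.04. ALD6, the cytosolic aldehyde dehydrogenase that makes acetate, was lower (-0.80), as was ICL2 (-0.81). ALD4, the mitochondrial counterpart of ALD6 (0.01), the lactate and pyruvate transporter gene JEN1 (-0.07) and CIT2 (-0.02), the peroxisomal citrate synthase, did not pass. On the spike-in scale of group means ALD4 (0.151, adjusted p = 0.00463) and CIT2 (0.124, 0.0167) passed as higher. The respiratory chain (15 higher and 11 lower of 39, 38.5% and 28.2%, median 0.06) and the TCA cycle (7 and 4 of 13, 53.8% and 30.8%, median 0.09) held no member that differed by 2-fold. On the spike-in scale of group means they had 22 higher and 0 lower (median 0.2) and 9 higher and 0 lower (median 0.236), and with the spike-ins of each array 1 higher and 0 lower each.

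Genes for separating daughter from mother cells were higher in restricted cells at 24 h and closer there to control cells of the same age. Of 13 measured, 11 were higher and 2 lower (median 0.724). Control cells lowered 12 of them from 24 h to 48 h (median -0.906), beside 1656 of all 5449 genes. Against control cells at 24 h restricted cells were higher in 3 and lower in 8 (median -0.182), beside 1723 and 1712 of all 5449 genes. DSE4, a glucanase that degrades the septum, was at 5.68, 5.71 and 5.71 in restricted cells at 24 h, at 4.34, 4.21 and 4.36 in control cells at 48 h and at 5.67 in control cells at 24 h. PIR1, a cell wall protein, differed by 1.5 ± 0.04, DSE2 by 1.19 ± 0.07 and DSE1 by 1.26. The members that were lower were AMN1 (-0.42), which restrains exit from mitosis in daughter cells, and BUD9 (-0.27), and BUD9 no longer passed on the spike-in scale of group means (adjusted p = 0.111).

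Cell division genes were higher in part. CLB1, a cyclin of mitosis, was at 6.10, 6.05 and 6.10 in restricted cells at 24 h, at 4.22, 4.25 and 4.43 in control cells at 48 h and at 6.18 in control cells at 24 h, a difference of 1.78 ± 0.07 (adjusted p = 4.15e-15). CLN1, a cyclin of the start of the cycle, was 1.42 ± 0.07 higher and SWE1, a kinase that delays mitosis, 0.69 ± 0.07 higher. Of 20 cyclin and mitosis genes 12 were higher and 5 lower (60.0% and 25.0%, over all genes 35.9% and 34.7%). The lowest of them was SWI4 (-0.73), for an activator of cyclin genes at the start of the cycle. Of 42 DNA replication genes 19 were lower and 12 higher (45.2% and 28.6%), none by 2-fold. Their median of -0.07 was 0.08 on the spike-in scale of group means.

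Of 35 cell wall genes 15 were higher and 11 lower (42.9% and 31.4%, over all genes 35.9% and 34.7%). The large differences were on the higher side, with 8 higher and 1 lower by at least 2-fold. CIS3, for a wall protein linked to glucan, was at 9.77, 9.75 and 9.70 in restricted cells at 24 h and at 7.82, 7.81 and 7.82 in control cells at 48 h (1.92 ± 0.06, adjusted p = 7.64e-17). CWP1, another mannoprotein, was 4.0-fold higher and TIR1, of the family that is known from cold and anaerobic growth, 5.25-fold higher. The others were TIR3 (1.18), the glucan and chitin remodelling enzymes GAS1 (1.63), CRH1 (1.42) and SCW10 (1.34), and the chitin synthase gene CHS1 (1.47). FKS1, the catalytic subunit of glucan synthase, was the 1 lower gene (-1.03). TOS6, for a predicted wall protein, had the second highest difference of all genes after ALP1. It was at 7.70, 7.76 and 7.65 against 4.69, 4.72 and 4.64 (8.14-fold, adjusted p = 4.82e-16), and at 6.92 in control cells at 24 h.

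Sterol genes were also higher. Of 26 ergosterol genes 20 were higher and 1 lower (median 0.532). Control cells lowered 19 of them from 24 h to 48 h (median -0.31), beside 1656 of all 5449 genes. ERG6, a methyltransferase of the late pathway, was at 8.65, 8.67 and 8.60 against 6.98, 7.12 and 7.12 (1.57 ± 0.06, adjusted p = 4.71e-15), and at 7.89 in control cells at 24 h. ERG3 (1.34) and ERG4 (1.11) were the other members past 2-fold, HMG1, of the rate-limiting step, was 0.90 higher, and ECM22, an activator of the pathway, was lower (-0.40). Of 17 genes for fatty acid and phospholipid synthesis 10 were higher and 4 lower (58.8% and 23.5%, over all genes 35.9% and 34.7%). FAS2, a subunit of fatty acid synthase, was at 1.34 ± 0.05 and INO1, for inositol synthesis, at 1.53 ± 0.08.

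YHB1, the flavohemoglobin that removes nitric oxide, belonged with these genes: it was at 9.47, 9.55 and 9.52 in restricted cells at 24 h, at 7.27, 7.34 and 7.38 in control cells at 48 h and at 9.20 in control cells at 24 h (4.55-fold, adjusted p = 3.95e-18). CYS3, which makes cysteine from cystathionine, was 4.20-fold higher, and PHO3, an acid phosphatase that is not part of the induced set, was 5.42-fold higher. PHO3 averaged 5.77 in control cells at 24 h, within 0.12 of restricted cells.

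Of 23 purine genes 15 were higher and 1 was lower (median 0.283). The 5 past 2-fold were AAH1, the adenine deaminase, IMD3, for guanine nucleotide synthesis (1.58 ± 0.07), ADE17 (1.18), ADE13 (1.05 ± 0.06) and GUA1 (1.0). AAH1 was at 4.17, 4.16 and 4.34 in restricted cells at 24 h and at 2.36, 2.16 and 2.40 in control cells at 48 h, about the background level, so the size of its difference is not given. Of 14 pyrimidine genes 10 were lower and 4 higher (median -0.343). URA2, the enzyme of the committed step, was at 8.91, 8.79 and 8.72 in restricted cells at 24 h against 11.52, 11.47 and 11.44 in control cells at 48 h, a 6.36-fold difference (adjusted p = 2.85e-19). Control cells at 24 h averaged 11.06, so for this gene restricted cells stood apart from both controls. URA1, dihydroorotate dehydrogenase, was 4.38-fold lower, the uridine permease FUI1 5.51-fold lower, the uracil permease FUR4 lower (-1.36) and PPR1, the activator of the pathway, lower (-1.40). URA7, which makes CTP, was the highest of the 4 higher members (0.94).

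Of 32 chaperone genes 24 were lower and 2 higher (median -0.513). From 24 h to 48 h control cells raised 8 and lowered 8, beside 1718 and 1656 of all 5449 genes. HSP82, for the Hsp90 chaperone, was at 9.52, 9.44 and 9.41 in restricted cells at 24 h, at 11.05, 11.07 and 11.10 in control cells at 48 h and at 10.98 in control cells at 24 h (-1.62 ± 0.07, adjusted p = 1.87e-14). Of the 11 lower by at least 2-fold, BTN2, which sorts misfolded protein, was lowest at -1.90, and the others were YDJ1, MDJ1, FES1, KAR2, SSA2, HSP78, SSA4, CPR6 and SSC1, from -1.44 to -1.0. They include chaperones of the cytosol (YDJ1, SSA2), the endoplasmic reticulum (KAR2) and the mitochondria (MDJ1, HSP78, SSC1). The small heat shock genes HSP12 (0.06 ± 0.05) and HSP26 (0.05 ± 0.04) did not pass, but at 12.31 to 12.47 on all 6 arrays they were close to the highest value of any array, where a difference could go unmeasured. On the spike-in scale of group means both passed as higher (adjusted p = 0.00162 and 0.000109). CPR7 and SBA1, both cofactors of Hsp90, were the higher members, and the CPR7 difference of 0.16 did not pass without control replicate 2 or 3 or restricted replicate 1 (adjusted p = 0.0618, 0.0723 and 0.12).

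The phosphate regulon, which serves the uptake and storage of phosphate, had 14 of 18 members lower and 2 higher (median -0.684). One of the higher members was PHO3 (2.44 ± 0.09), named above as not part of the induced set. PHO84, the high-affinity transporter, was at 8.76, 8.65 and 8.62 against 11.07, 11.18 and 11.12, a 5.44-fold difference (adjusted p = 5.35e-17), and averaged 10.57 in control cells at 24 h. PHM6 was 4.67-fold lower, VTC3, of the polyphosphate polymerase, 2.45-fold lower, the transporter gene GIT1 lower (-1.65), and so was SPL2 (-1.05). PHO5, the secreted acid phosphatase, was 2.11-fold lower than in control cells at 48 h and lower again against control cells at 24 h (-2.39), while in control cells it fell by 1.32 from 24 h to 48 h. PHO11, its close relative on a shared probe set, had overlapping arrays and a difference of -0.21 (adjusted p = 0.0312) that did not pass without control replicate 1 or 2 or restricted replicate 3 (adjusted p = 0.0822, 0.183 and 0.191).

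**Figure D5:**
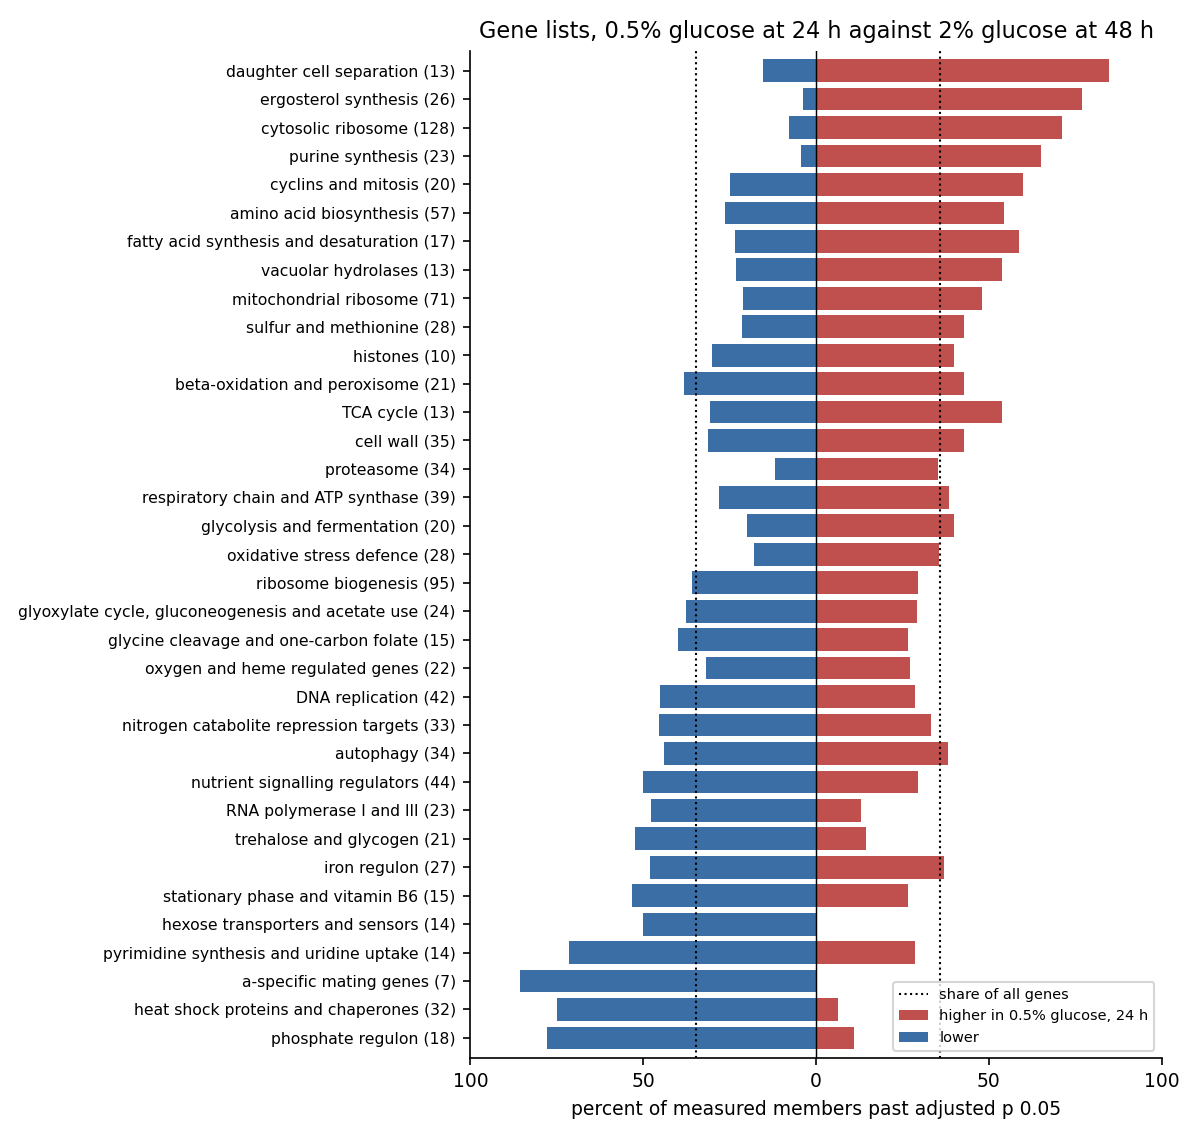
Share of measured members of each of 35 gene lists that were higher (red, to the right) or lower (blue, to the left) in restricted cells at 24 h than in control cells at 48 h, ordered by the list's median difference, with the number measured in brackets. Dotted lines mark the shares of all genes, 35.9% higher and 34.7% lower; chaperones and the phosphate regulon lie at the lower end and daughter cell separation at the upper end.

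Of 128 genes in the list of the cytosolic ribosome 91 were higher and 10 lower (median 0.376). The list also held RPP1, for a subunit of RNase P and not a ribosomal protein, which was among the higher genes (0.33). Their median level was 9.58 to 9.61 on the restricted arrays, 9.14 to 9.23 in control cells at 48 h and 9.02 to 9.13 in control cells at 24 h, and the groups did not overlap. RPL22A was at 9.26, 9.38 and 9.29 against 7.45, 7.47 and 7.36 (3.68-fold, adjusted p = 6.72e-15), while its duplicate RPL22B differed by 0.01. RPS22B was 3.39-fold higher and its duplicate RPS22A differed by 0.13 (adjusted p = 0.119), which passed in a fit of the 6 arrays alone (0.0429), with array weights (0.0128) and on the spike-in scale of group means (0.00233). The probe sets of these duplicated genes are not marked as shared between genes. Whether they cross-hybridise was not tested, which leaves the split between copies uncertain. The assembly factors of ribosome biogenesis, with 28 higher and 34 lower of 95 (29.5% and 35.8%), were near the shares of all genes (35.9% and 34.7%). Their median of -0.02 was 0.124 on the spike-in scale of group means. RIX7, which acts in the large subunit's assembly but was not in that list, was 4.11-fold lower. Of 57 genes for making amino acids 31 were higher and 15 lower (54.4% and 26.3%, over all genes 35.9% and 34.7%). ARO4, of the aromatic pathway, was at 1.78 ± 0.09, LEU1 at 1.59 ± 0.05 and CPA1, of arginine synthesis, at -1.24.

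Of 14 hexose transporters and sensors 7 were lower (median -0.258), and the other 7 did not pass. On the spike-in scale of group means 6 were lower and 3 higher, and with the spike-ins of each array 5 were lower and 0 higher. HXT4 was 3.17-fold, the glucose sensor RGT2 3.02-fold and HXT3 2.76-fold lower. HXT3 averaged 5.79 in control cells at 24 h and restricted cells were within 0.08 of that, whereas HXT4 averaged 6.14 there and restricted cells were apart from both controls. HXT5, a transporter of slow-growing cells, was level at 11.02 in both groups, but passed as higher on the spike-in scale of group means (0.144, adjusted p = 0.0102). HXK2, the hexokinase of growth on glucose, was at 7.91, 7.86 and 7.84 against 9.12, 9.05 and 9.05 (-1.21 ± 0.07, adjusted p = 1.48e-12), and averaged 9.16 in control cells at 24 h. Of 21 storage carbohydrate genes 11 were lower and 3 higher, with NTH2, a trehalase, at -0.67 ± 0.05. On the spike-in scale of group means 9 were lower and 8 higher, and the median of -0.16 was -0.0174.

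Of the single genes, ALP1 (YNL270C), a permease for basic amino acids, differed most on the higher side. It was at 7.43, 7.52 and 7.5 in restricted cells at 24 h, at 3.73, 3.76 and 3.8 in control cells at 48 h and at 4.24 in control cells at 24 h (13.2-fold, adjusted p = 1.43e-19). PDR12 (YPL058C), which exports weak organic acids, differed most on the lower side, at 6.46, 6.21 and 6.17 against 10.24, 10.09 and 10.08 (14.5-fold, adjusted p = 2.55e-18). Control cells raised PDR12 from 6.76 at 18 h to 9.18 at 24 h, and restricted cells stayed between 5.26 and 6.28 up to 24 h. BSC4 (YNL269W), of unknown function, was at 2.68, 2.76 and 2.63 against 6.32, 6.43 and 6.51, little above background in restricted cells. BSC4 and ALP1 are next to each other in the RefSeq R64 gene table, a pairing picked after their values were seen, and LYP1 on the other side of BSC4 differed by -0.09 (adjusted p = 0.0913), which passed with array weights (0.0388) and without control replicate 2 (0.0395). BSC4 reached 6.82 in restricted cells at 48 h, and RAD53, the checkpoint kinase, was lower at 24 h, at 2.32, 2.48 and 2.46 and so about at background, and reached 5.29 in restricted cells at 48 h, beside 5.22 in control cells at 48 h.

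Further genes past the rule on the higher side were ECM8 (4.75-fold) and PUN1, of the plasma membrane (3.71-fold). On the lower side they were SEC59, the dolichol kinase (6.06-fold), ZPR1, which assists the folding of elongation factor (5.98-fold), and ERO1, the oxidase of the endoplasmic reticulum (5.12-fold). Non-overlapping arrays were part of that rule, and 76.3% of all genes had them.

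Of 7 a-specific mating genes 6 were lower (median -0.504), and the seventh did not pass. On the spike-in scale of group means 6 were lower and 1 higher, and with the spike-ins of each array 1 was lower and 0 higher. STE2, the receptor for alpha factor, was at 7.68, 7.61 and 7.53 against 8.48, 8.53 and 8.56 (-0.92 ± 0.06, adjusted p = 5.65e-12). MF(ALPHA)1, of the opposite mating type, was higher at 4.80, 4.92 and 4.50 against 3.57, 3.38 and 3.39, and so was STE3 (0.87 ± 0.12), while SAG1 was lower (-0.41 ± 0.06); their part in the a-specific difference was not tested.

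Among the regulators of nutrient signalling 22 of 44 were lower and 13 higher, and the median of -0.11 was 0.03 on the spike-in scale of group means. RIM15, a kinase required for entry into quiescence, was at 5.69, 5.83 and 5.78 against 7.02, 7.08 and 6.96 (2.38-fold lower, adjusted p = 3.71e-14), and MSN4, an activator of stress genes, was 2.27-fold lower. MTH1, a corepressor of hexose transporter genes, was lowest at -1.40, and IFH1, an activator of ribosomal protein genes, was at -1.01. NPT1, of NAD salvage, was the highest at 1.16 ± 0.05. GIS1, an activator of post-diauxic genes (-0.06 ± 0.07), and SIR2, the NAD-dependent deacetylase (0.20 ± 0.12), did not pass. SIR2 did pass with only the 6 arrays compared (adjusted p = 0.00462) and on the spike-in scale of group means (0.0156). HAP4, the activator of respiratory genes, was 1.65-fold lower and CYC7, the minor cytochrome c, 2.96-fold lower.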

How the data were processed

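RNA of 24 cultures was hybridised to Affymetrix Yeast Genome 2.0 arrays. The deposited log2 values of 10928 probe sets were made by the authors, and the submitters' processing notes name Partek, without a role; the summarisation and the logarithm's base are not given in any source used here. The base was inferred from the range of 0.598 to 12.6, and quantile normalisation from equal distributions (largest gap 0.0095). Probe sets of 1 S. cerevisiae gene (5498) gave 5449 genes, with the brightest probe set for the 47 genes that had several; 118 genes had probe sets that can be shared. The 1746 Schizosaccharomyces pombe probe sets gave the background (95th percentile). A limma 3.58.1 model over 8 groups in R 4.3.3, tested on simulated data, gave moderated statistics, adjusted per comparison.

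The number of arrays limits the precision. Genes, 35 lists (1076 of 1102 members measured) and tests were chosen with earlier results of these data known. Genes named were the 12 highest and 12 lowest differences among genes with a standard name, 3 members of each list by moderated statistic, the 6 nearest and 6 farthest genes of the last control step in each direction, and a panel; list members beyond these were chosen after their values were seen. Residuals of same-numbered arrays of both groups correlated at -0.0707, 0.0899 and 0.086, so the numbers were not used as pairs. For restricted and control cells at 24 h (0.367, 0.117 and 0.36) they met the rule of 0.1. The counts reported for that comparison still come from the unpaired fit, with the replicate block as an alternative. Alternatives were other scalings, filters, weights, sample sets, the replicate block and leaving out each array. No sequences were used here.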

Additional observations from a re-analysis of the deposited data

Results flagged for a closer look

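Of 3470 probe sets without an annotation in the tables used here, which the gene comparisons left out, 20 were above background and differed by at least 2-fold between restricted cells at 24 h and control cells at 48 h, 9 higher and 11 lower. The largest difference on the higher side was 2.01, with means of 6.56 and 4.55. On the lower side the means were 5.40 in control cells and 1.62, below background, in restricted cells, so the size of that difference is not given.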

How the results depend on the processing

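The counts of called genes stayed within 1.5 times of those reported under every alternative but the spike-in scale of each array. There restricted cells at 24 h differed from control cells at 48 h in 1288 genes in place of 3844, control cells between 24 and 48 h in 636 in place of 3374, and both glucose levels at 24 h in 1215 in place of 3435. On that scale 130 of 696 genes of the control course differed in its direction and 95 against it, and 329 of 1071 list genes passed in place of 784. The distance between restricted cells at 24 h and control cells at 48 h was 0.306 on both spike-in scales. CIT2 turned from -0.02 to 0.12 and passed (adjusted p = 0.0167) on the spike-in scale of group means. The cause was not tested. With the replicate block the central comparison called 3918 genes, 1991 higher and 1927 lower, and the block moved no count by 1.5 times. With it both glucose levels at 24 h differed in 3546 genes, and 272 genes of the control course differed in its direction and 221 against it. Leaving out 1 array at a time gave 3628 to 3666 genes for the central comparison, 3091 to 3180 for the control step, 3175 to 3256 at 24 h, 244 to 276 on the course, 737 to 755 for the lists and 0.275 to 0.28 for the distance. Of 595 list counts under alternatives 563 stayed within 1.5 times, and the other 32 were all on the spike-in scales; the medians of 9 of 35 lists turned there and 0 on the other scales.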
